A study of Mus musculus with 15 samples.

Results

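The 9 genes described here belong to the renin-angiotensin system of the mouse heart. They are Agt, Ace, Enpep, Lnpep, Agtr1a, Agtr2, Mas1, Atp6ap2 and Agtrap, listed by name with earlier results of these data known. Each matched 1 of the 36653 gene identifiers in the deposited expression table. Polyadenylated RNA of the ventricle was sequenced from 15 C57BL/6 mice without genetic change (wild type), aged 10 weeks, in 3 groups of 5 biological replicates. Vehicle mice received saline. AngII mice carried a subcutaneous pump that delivered angiotensin II at 1000 ng/kg/min, and AngII plus OA mice carried the same pump. The latter also received 160 mg/kg of oleic acid (OA), the main fatty acid of olive oil, in a volume of 0.3 mL each day. The labels do not give the length of treatment, the sex of the mice or whether vehicle mice carried a pump. Levels are the FPKM values that the authors deposited, which correct fragment numbers for gene length and sequencing depth.

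Angiotensinogen, the product of Agt, is cleaved by renin and then by the converting enzyme Ace to angiotensin II, a hormone that narrows vessels and drives salt retention and growth of the heart. Angiotensin II acts mainly through the type 1 receptor, encoded in the mouse heart by Agtr1a, while the type 2 receptor Agtr2 and the receptor Mas1, which responds to a shorter angiotensin peptide, are generally placed on an opposing arm. Aminopeptidases such as Enpep and Lnpep trim or bind the peptides, Atp6ap2 binds renin and its precursor and also serves the vacuolar proton pump, and Agtrap binds the type 1 receptor and promotes its internalisation.

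The libraries were scaled to 24470000 to 28270000 fragments, as recovered from the FPKM steps, and between 10990 and 11528 genes reached 1 FPKM. The cardiomyocyte markers were abundant in every library, with a summed level over 6 genes of 7482 FPKM in AngII replicate 2 and at least 11680 in every vehicle library. Atrial markers varied within each group, from 2.83 to 692 summed FPKM in vehicle, 2.85 to 2461 in AngII and 1.98 to 597 in AngII plus OA hearts. AngII replicate 2 stood apart, with the highest atrial, adipocyte and mesothelial sums.

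In vehicle hearts the members fell into 4 tiers of FPKM, a scale on which genes can be compared because it is per length. Atp6ap2 (median 11.2 FPKM), Ace (8.85), Agtrap (8.03) and Agtr1a (8.0) formed the highest, and their ranges overlapped from one to the next. Lnpep (3.64) and Enpep (3.23) came next, and all 5 libraries had more Agtr1a than Lnpep and more Enpep than Agt. Agt (1.49) and Mas1 (0.910) followed with overlapping ranges. Agtr2 was lowest, below Mas1 in all 5 libraries. The order differed in AngII hearts, where Ace had the highest median (14.5 FPKM), Agtr1a (5.63) lay below Agtrap (8.94) in all 5 libraries, though their ranges overlapped, and Agt (3.46) overlapped Lnpep (3.57). These orders are given as levels, without a test.

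**Figure D1:**
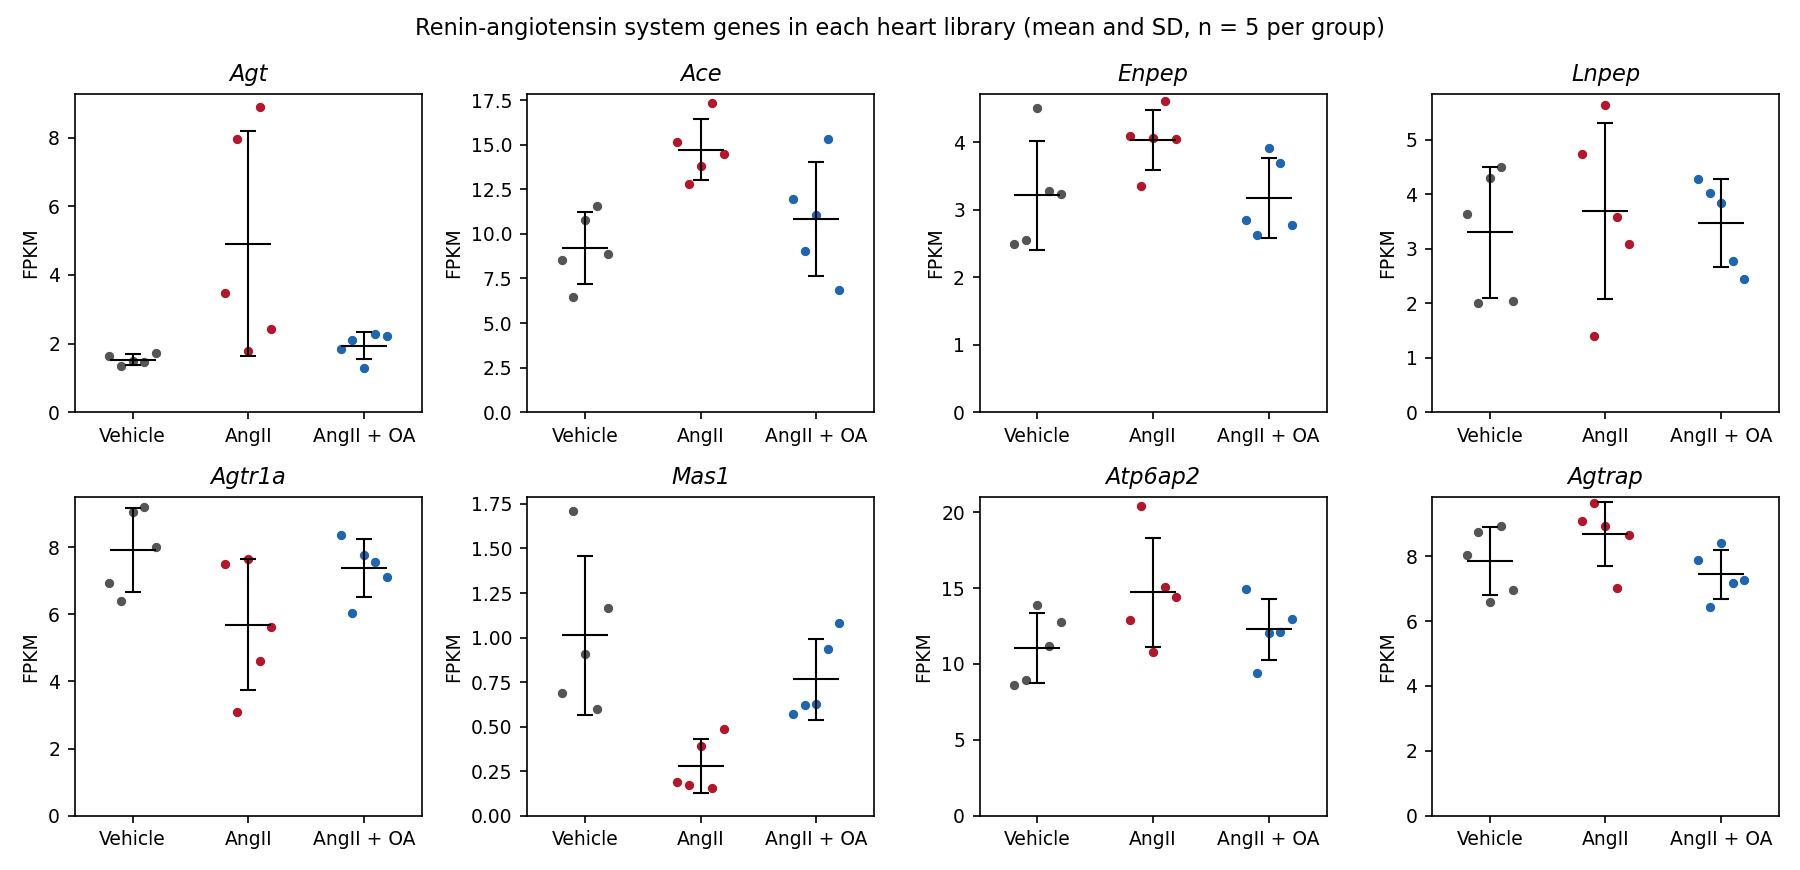
FPKM of the 8 members above the filter in each of the 15 libraries, with 1 point per library and the mean and SD of each group (n = 5) in black; each axis starts at 0. All AngII points lie above all vehicle points for Agt and Ace and below them for Mas1, and the AngII plus OA points lie above the AngII points for Mas1.

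The 3 members whose AngII and vehicle ranges did not overlap differ in the sequence just before their start sites. Shown for each are the 80 bases before the start in RefSeq (build GRCm38.p6), 5′ to 3′ on the strand of the gene, with matches to 4 short motifs in capitals. Agt lies on the minus strand (chr8:124569707-124569786), Ace on the plus strand (chr11:105967868-105967947, the first of its 2 listed starts) and Mas1 on the minus strand (chr17:12868144-12868223).
Agt: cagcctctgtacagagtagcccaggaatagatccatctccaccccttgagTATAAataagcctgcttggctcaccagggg
Ace: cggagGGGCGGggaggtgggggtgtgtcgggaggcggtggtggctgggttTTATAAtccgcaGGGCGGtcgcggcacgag
Mas1: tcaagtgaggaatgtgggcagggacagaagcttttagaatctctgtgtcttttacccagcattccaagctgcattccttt

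The core of a TATA box (TATAA), the CCAAT box, the GC box (GGGCGG) and the core of a cyclic AMP response element (TGACGT) were searched on both strands in the 250 bases before each start, where the run TTATAA counts once on each strand. TATAA began at -30 in Agt, where -1 is the last base before the start, and at -29 in Ace. It was in 4 of the 8 members with an entry (Ace, Agt, Agtr2 and Enpep) and in 22.8% of all 32817 promoters. GGGCGG was in 3 of the 8 (Ace, Atp6ap2 and Lnpep) and in 32.7% of all. Mas1 held neither and had 1 CCAAT match, at -93, outside the bases shown. CCAAT was in 5 of the 8 members, in Ace only before the second of its 2 starts, and in 33.8% of all promoters. TGACGT was in 1, Atp6ap2, and in 6.46% of all. A member counts if any of its starts has the motif, while the percentages are of single promoters. RefSeq entries matched 8 of the 9 members, all but Agtr1a.

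AngII against vehicle asks which of these genes differed in hearts exposed to angiotensin II. Mas1 fell and was the 1 member called, at an adjusted p under 0.05 in limma, a linear model fitted across 13121 genes with a mean of at least 0.5 FPKM. Of the 8 members in that fit 1 was called, where 1.5% of all genes tested were. The AngII and vehicle ranges did not overlap for 3 of the 8 members, Agt and Ace higher and Mas1 lower, against 3.8% of all genes tested. An unadjusted p under 0.05 was found for 5 of the 8 members and 16.6% of all genes. The median log2 change of the 8 members was 0.20, beside 0.07 for all genes, with 6 higher and 2 lower. Changes here are differences on the log2(FPKM + 1) scale, which understates those of low genes.

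Mas1 (ENSMUSG00000068037), the receptor of the opposing arm, stood at 0.688, 1.71, 0.910, 0.599 and 1.16 FPKM in vehicle replicates 1 to 5. AngII hearts had 0.188, 0.171, 0.392, 0.156 and 0.488 FPKM. Every AngII library was below every vehicle library, and the means, 0.279 ± 0.151 against 1.01 ± 0.446 FPKM (SD, n = 5 each), differed 3.64-fold. The log2 change was -0.64 (SE 0.14, limma adjusted p = 0.0348). The AngII mean lay below the filter of 0.5 FPKM. Mas1 passed that filter through its vehicle and AngII plus OA levels (mean 0.767 FPKM in the latter). With no filter the limma adjusted p was 0.0812, so the call was lost. Whole reads could be recovered for the gene, 42 to 110 in each vehicle library and 10 to 35 in each AngII library, or 335 and 98 in all. With 0.1 in place of 1 added to FPKM before the logarithm the change was -1.56 (adjusted p = 0.0266). In bulk tissue fewer cells of a type and less RNA per cell cannot be told apart.

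The Mas1 call lay near the threshold and was kept in 3 of the 10 fits that left out 1 AngII or vehicle library. Its adjusted p was 0.0846, 0.0520, 0.0908 and 0.0602 without AngII replicates 1, 2, 4 and 5 and 0.0706, 0.0600 and 0.0987 without vehicle replicates 2, 3 and 5. It was 0.0501 without AngII plus OA replicate 3, which enters only the shared spread, and 0.107 with the 10 libraries compared alone. Changes ran from -0.71 to -0.52 when 1 library was left out. Leaving out libraries could not turn the direction, because the AngII and vehicle ranges did not overlap. The antisense RNA Airn runs across the Mas1 gene on the other strand in GENCODE M21, with 0 bases of exon in common, and the strand setting of the counts is not given. The exon overlap does not cover unspliced RNA, and whether Airn reads entered the Mas1 values was not tested. Airn was at 3.70 to 4.60 FPKM in vehicle and 2.95 to 6.09 in AngII hearts (log2 change 0.02, SE 0.18, limma adjusted p = 0.969), with a 95% interval of -0.36 to 0.40.

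**Figure D2:**
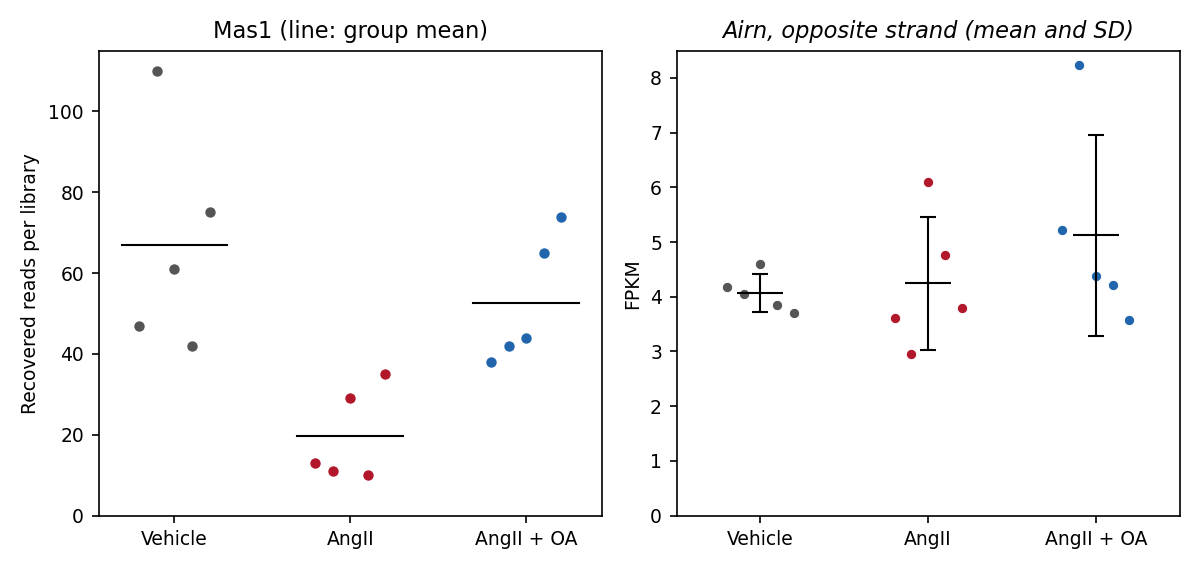
Left, whole reads recovered for Mas1 in each library, with a line at the group mean; right, FPKM of Airn on the opposite strand, with mean and SD (n = 5). Mas1 reads were 10 to 35 in AngII and 42 to 110 in vehicle libraries, while the Airn ranges overlapped in all 3 groups.

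Agt (ENSMUSG00000031980), the precursor of all angiotensins, was at 1.64, 1.34, 1.49, 1.46 and 1.72 FPKM in vehicle replicates 1 to 5 and at 3.46, 7.95, 1.80, 8.90 and 2.43 in AngII replicates 1 to 5. All AngII values were above all vehicle values, and 2 of them, replicates 2 and 4, were far above the other 3. The mean was 4.91 ± 3.28 against 1.53 ± 0.153 FPKM (SD, n = 5), or 3.21-fold, and did not pass (log2 change 1.04, SE 0.28, limma adjusted p = 0.0808). It passed without AngII replicate 3 (log2 change 1.26, adjusted p = 0.0163).

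The libraries with the most Agt were those with the most adipocyte transcripts. The summed level of 5 adipocyte markers (Adipoq, Plin1, Cfd, Retn and Lep) was 283 FPKM in AngII replicate 2 and 83.5 in AngII replicate 4, against 1.21 to 4.56 in the other AngII libraries, 0.216 to 10.2 in vehicle and 0.498 to 22.5 in AngII plus OA. The summed level of 5 mesothelial markers was 82.9 FPKM in AngII replicate 2, 15.8 in AngII plus OA replicate 4, 11.2 in AngII replicate 4 and at most 7.13 elsewhere. In AngII replicates 1, 3 and 5 the adipocyte sum was 2.14, 4.56 and 1.21 FPKM and Agt was at 3.46, 1.80 and 2.43 FPKM, where the highest vehicle library had 1.72. The log2 change of Agt was 0.84 (limma adjusted p = 0.114) without AngII replicate 2 and 0.47 (0.168) without AngII replicates 2 and 4, a choice made after the values were seen. The part of adipocyte content in the Agt difference was not tested.

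Ace (ENSMUSG00000020681), which makes angiotensin II from its precursor peptide and degrades bradykinin, was at 8.54, 6.44, 10.8, 11.6 and 8.85 FPKM in vehicle hearts. AngII hearts had 15.2, 12.8, 13.8, 17.3 and 14.5 FPKM. The groups did not overlap, and the means were 14.7 ± 1.71 and 9.23 ± 2.02 FPKM (SD, n = 5), a ratio of 1.59. The log2 change of 0.64 (SE 0.18, 95% interval 0.26 to 1.01) did not pass after adjustment over all genes (limma adjusted p = 0.0936), nor in any fit with 1 library left out (0.0617 to 0.185). It was 0.62 without AngII replicates 2 and 4. An antisense gene, Gm11651, shares 295 of the 5287 exon bases of Ace in GENCODE M21 and was listed at 0 in every library. Ace is made largely by endothelial cells. The summed level of 6 endothelial markers was 227 to 297 FPKM in AngII and 192 to 262 in vehicle hearts, with 0 of the 6 called by limma and a median log2 change of 0.18. Of the 6 markers 5 were higher in AngII hearts and Kdr was lower (log2 change -0.26, limma adjusted p = 0.679). Of the 6, 1 had ranges that did not overlap, the adhesion molecule Pecam1, named after its values were seen. Its mean was 55.4 FPKM in AngII and 37.5 in vehicle hearts (ratio 1.48, log2 change 0.52, limma adjusted p = 0.121). Pecam1 stood at 84.3 FPKM in AngII replicate 2, the library with the least Ace of its group. AngII replicates 1, 3, 4 and 5 had 50.6, 48.6, 49.2 and 44.5 FPKM of Pecam1. AngII replicate 4 had both the highest endothelial sum (297 FPKM) and the most Ace, and vehicle replicate 2, with the highest sum of its group (262), had the least Ace. The part of endothelial content in the Ace difference was not tested.

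**Figure D3:**
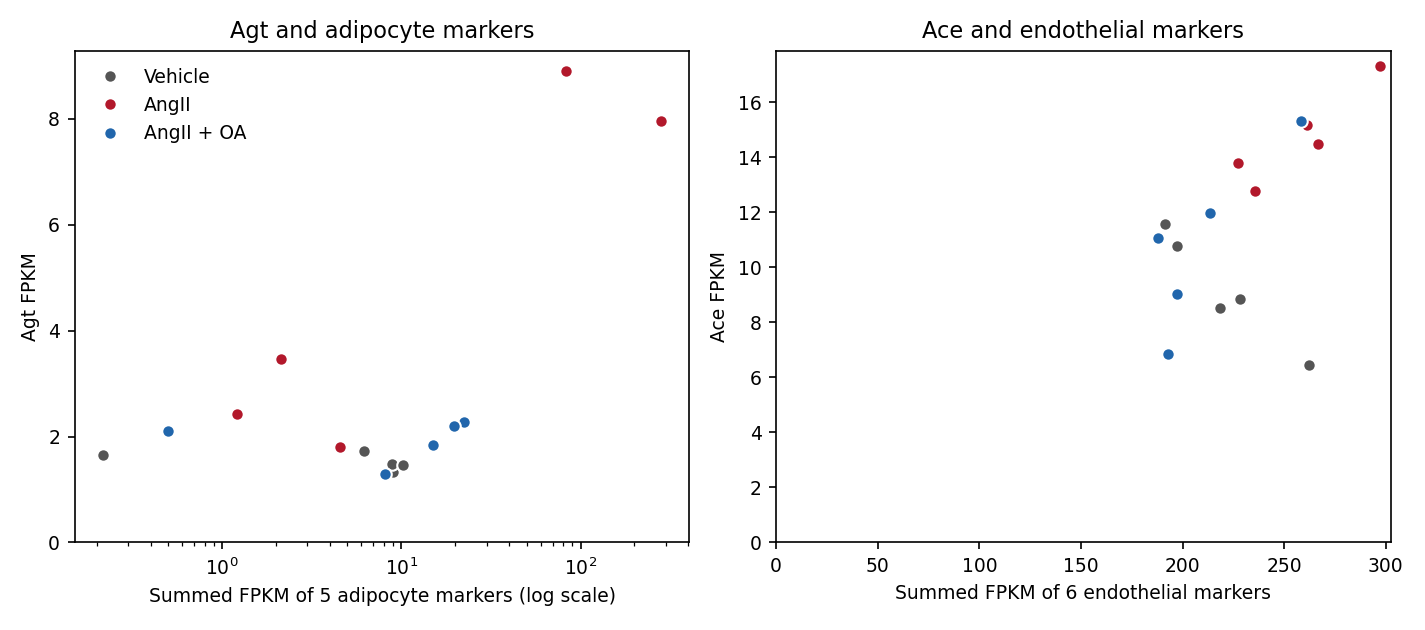
Agt FPKM against the summed FPKM of 5 adipocyte markers (left, horizontal axis on a log scale) and Ace FPKM against the summed FPKM of 6 endothelial markers (right), with 1 point per library. AngII replicates 2 and 4 lie at the upper right of the Agt panel, with 7.95 and 8.90 FPKM, while the endothelial sums of the groups overlap.

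Agtr1a, Enpep, Lnpep, Atp6ap2 and Agtrap did not pass. Agtr1a (ENSMUSG00000049115), the main receptor for angiotensin II, was at 6.92, 6.39, 9.05, 9.19 and 8.0 FPKM in vehicle and at 7.50, 3.08, 7.64, 4.62 and 5.63 in AngII hearts. The 3 lowest of these 10 values were AngII libraries, but AngII replicates 1 and 3 lay within the vehicle range. The means were 5.69 ± 1.94 and 7.91 ± 1.25 FPKM (SD, n = 5; log2 change -0.45, SE 0.18, limma adjusted p = 0.209). Without AngII replicate 2, which had the least Agtr1a, the change was -0.29. It was -0.17 (limma adjusted p = 0.624) without AngII replicates 2 and 4. The second type 1 receptor gene, Agtr1b, was listed at 0 in all 15 libraries. How reads that fit both were assigned is not given in the sources used here.

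Agtr2 (ENSMUSG00000068122) was not measurable at this depth. It had 8 reads in all, 2 and 1 in vehicle replicates 2 and 4 and 2 and 3 in AngII plus OA replicates 1 and 5, and 0 in the other 11 libraries. A count of 0 allows up to 3 reads, which is 0.0319 to 0.0369 FPKM for this gene, counting error only. It failed the filter on low values, and in a fit over all 28996 genes above 0 its adjusted p in AngII against vehicle was 0.751 in limma.

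Enpep (ENSMUSG00000028024), which removes the first residue of angiotensin II, averaged 4.04 ± 0.446 FPKM in AngII and 3.21 ± 0.809 in vehicle hearts (SD, n = 5; log2 change 0.27, SE 0.13, limma adjusted p = 0.304). The groups overlapped: AngII libraries spanned 3.36 to 4.61 FPKM and vehicle libraries 2.49 to 4.50. Lnpep (ENSMUSG00000023845), an aminopeptidase that binds a shortened angiotensin, spread widely within both groups, from 2.0 to 4.50 FPKM in vehicle and from 1.40 to 5.63 in AngII hearts. Its log2 change was 0.09, with a 95% interval of -0.44 to 0.63, and its sign turned without vehicle replicate 2, vehicle replicate 5 or AngII replicate 3.

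Atp6ap2 (ENSMUSG00000031007), the renin-binding subunit, averaged 14.7 ± 3.58 FPKM in AngII and 11.1 ± 2.31 in vehicle hearts (SD, n = 5; log2 change 0.37, limma adjusted p = 0.271). AngII replicate 2 had the most, 20.4 FPKM, and without it the change was 0.26. Agtrap (ENSMUSG00000029007), the partner that limits the type 1 receptor, was at 8.67 ± 0.990 against 7.85 ± 1.05 FPKM (log2 change 0.13, 95% interval -0.10 to 0.36, limma adjusted p = 0.578).

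**Figure D4:**
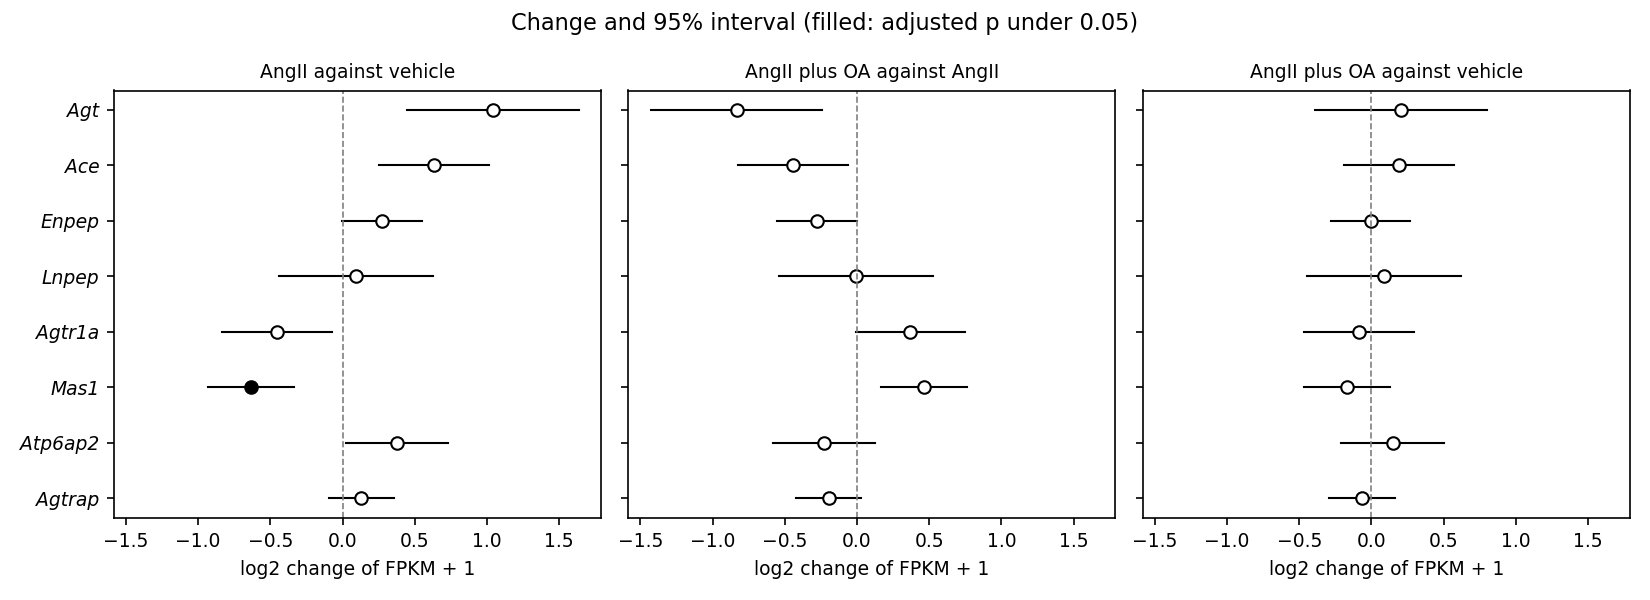
Difference in log2(FPKM + 1) of 8 members in 3 comparisons with its 95% interval from limma, not adjusted for the number of genes; a filled point has an adjusted p under 0.05. The filled point is Mas1 in AngII against vehicle, at -0.64, and the other points are open.

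Hearts given oleic acid with the pump were next compared with AngII hearts. No member passed (0 of 8, limma adjusted p from 0.706 to 0.995), and of all genes tested 0% were called, the smallest adjusted p being 0.574. An unadjusted p under 0.05 was found for 4 of the 8 members and for 6.6% of all genes. The AngII libraries are shared with the comparison against vehicle, so the values are given side by side and not as a second observation. Ranges did not overlap for 1 of the 8 members, Mas1, against 1.27% of genes tested.

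Mas1 was at 0.571, 0.620, 0.628, 0.935 and 1.08 FPKM in AngII plus OA replicates 1 to 5, all above the highest AngII library (0.488). The mean was 0.767 ± 0.227 FPKM (SD, n = 5) from 38 to 74 reads per library, 2.75 times that of AngII hearts (log2 difference 0.47, SE 0.14, limma adjusted p = 0.706). Agt was at 1.83, 2.11, 1.29, 2.27 and 2.21 FPKM, with a mean of 1.94 ± 0.403 against 4.91 ± 3.28 in AngII (log2 difference -0.83, SE 0.28, adjusted p = 0.706). It was -0.64 without AngII replicate 2 and -0.26 (adjusted p = 0.912) without AngII replicates 2 and 4, the libraries with the highest adipocyte sums. AngII plus OA replicates 1, 2, 4 and 5 lay within the AngII range for Agt, and replicate 3 below it.

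Ace was at 11.96, 9.03, 11.1, 15.3 and 6.84 FPKM in AngII plus OA hearts, with replicate 4 within the AngII range and the others below it (mean 10.9 ± 3.19 FPKM; log2 difference -0.44, SE 0.18, adjusted p = 0.737). The endothelial sum was 258 FPKM in replicate 4 and 188 to 214 in the other 4. Agtr1a averaged 7.37 ± 0.864 FPKM, with a range of 6.05 to 8.36 (log2 difference 0.37, 95% interval -0.01 to 0.75, adjusted p = 0.737). Without AngII replicate 2 this difference was 0.20, and without AngII replicates 2 and 4 it was 0.08. Enpep averaged 3.17 ± 0.589 FPKM (log2 difference -0.28, adjusted p = 0.737) and Agtrap 7.44 ± 0.757 (-0.20, adjusted p = 0.737). For Atp6ap2 the mean was 12.3 ± 2.0 FPKM (-0.23, 95% interval -0.58 to 0.13; -0.11 without AngII replicate 2). Lnpep averaged 3.47 ± 0.811 FPKM (-0.01, 95% interval -0.54 to 0.53; -0.23 without AngII replicate 2).

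AngII plus OA against vehicle gave 0 of 8 members called by limma, as for all genes (0%), with 0 members and 3.36% of genes at an unadjusted p under 0.05. Ranges did not overlap for 0 of the 8, against 0.838% of genes. The largest difference was that of Agt, 0.21 with a 95% interval of -0.39 to 0.80, followed by Ace (0.19, -0.19 to 0.57) and Mas1 (-0.17, -0.47 to 0.13). Each interval spans 0, which does not show that the AngII plus OA and vehicle hearts were alike. Taking both pump groups together against vehicle, 0 of 8 members were called, where 0.0229% of genes were (3 of 13121). An unadjusted p under 0.05 was found for 3 of the 8 and 10.9% of genes. Mas1 had a change of -0.40 (adjusted p = 0.198), Ace 0.41 (0.326) and Agt 0.62 (0.349). No member's ranges were separate, against 0.351% of genes.

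Renin itself, Ren1, had 12 reads in all, in 5 of the 15 libraries, and at most 5 in 1 library. The wider pathway gave no call. Of 17 other renin-angiotensin and angiotensin peptidase genes, 12 could be tested and 0 were called in AngII against vehicle (smallest limma adjusted p = 0.2, with 2 at an unadjusted p under 0.05, where 16.6% of all genes were), with a median log2 change of 0.18. Of the list, Cma1, Mcpt4 and Cpa3 also serve as mast cell markers. The most abundant were the lysosomal protease Ctsd (211 ± 23.4 FPKM in AngII, 178.5 ± 39.1 in vehicle, SD, n = 5) and the endothelin converting enzyme Ece1. Ece1 was at 99.7 FPKM in AngII replicate 2 and 20.1 to 28.0 in the other AngII libraries, against 17.8 to 24.5 in vehicle, and its log2 change of 0.51 was 0.10 without that library. Of 21 genes of type 1 receptor signalling all were tested and 0 were called (median 0.06, 5 at an unadjusted p under 0.05, again beside 16.6% of all genes). The regulator of G protein signalling Rgs5, a pericyte gene, was at 272 ± 63.9 FPKM in AngII and 232.5 ± 34.9 in vehicle, and the G protein subunit Gna12 at 28.9 ± 3.74 and 27.6 ± 1.02. The receptor kinase Grk5, named after its values were seen, had the smallest p of this list, with 13.1 ± 1.39 FPKM under AngII, 9.52 ± 1.59 under vehicle and a log2 change of 0.43 (SE 0.11, limma adjusted p = 0.0665). Its adjusted p was 0.0462 without AngII replicate 2, 0.0460 without vehicle replicate 4 and 0.0495 among genes with a mean of 5 FPKM or more. In the other 21 alternatives Grk5 did not pass. Its limma adjusted p was 0.118 to 0.219 under 3 other scalings and 0.193 with only the libraries compared.

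Of 9 kinin and mineralocorticoid genes 3 were tested and 0 called, with 0 at an unadjusted p under 0.05. Sgk1, a kinase induced by mineralocorticoids and other stimuli, was at 50.4 ± 22.1 FPKM in AngII and 36.2 ± 12.4 in vehicle hearts, and its log2 change of 0.41 was 0.21 without AngII replicate 2 and 0.003 without AngII replicates 2 and 4 (80.8 and 63.0 FPKM). The glucocorticoid-activating enzyme Hsd11b1 was at 8.94 ± 6.85 and 6.89 ± 1.53 FPKM, and its log2 change of 0.14 was -0.19 without AngII replicate 2. In the other comparisons these 3 lists also had 0 genes called. Their smallest adjusted p there was 0.237, for type 1 receptor signalling in both pump groups against vehicle.

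Among 11307 other genes with a mean of at least 1 FPKM (11308 for Mas1), those with the pattern most like each member over the 15 libraries were ranked by Spearman's rho, as a description of shared libraries and groups without a test. For Mas1 they were Plscr5 (rho 0.90, Pearson r 0.84) and Acy1 (0.89, 0.83). Agt was followed by Ccar1 (0.92, 0.75) and Vta1 (0.90, 0.79), and Ace by Chpf (0.92, 0.85) and Pla1a (0.92, 0.90). For Agtr1a they were Tppp (0.93, 0.70) and Chtf8 (0.90, 0.90), for Enpep Arf4 (0.92, 0.85) and Cald1 (0.90, 0.86), and for Atp6ap2 Eef1a1 (0.92, 0.93) and Csgalnact2 (0.92, 0.88). By rho, though not by Pearson r, Lnpep had the highest values, with Cul4a (0.97, 0.91) and Cops7a (0.97, 0.91). Agtrap had the lowest by rho, with Zcchc24 (0.84, 0.81) and Zc3h7b (0.83, 0.81).

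Markers of other cell types were read in the same libraries. Of 7 fibroblast markers 3 were called higher in AngII than in vehicle hearts, where 1.5% of all genes tested were called in either direction. The sum of the 7 was 729 to 1200 FPKM in AngII, 373 to 708 in vehicle and 544 to 1025 in AngII plus OA. Of 6 macrophage markers 3 were called higher, with sums of 188 to 314, 131 to 175 and 171 to 260 FPKM in the same order. For the pericyte (5 of 5 tested), smooth muscle (3 of 4 tested) and mast cell (4 of 5 tested) lists 0 markers were called. The mast cell sum was 1.80 to 6.46 FPKM in AngII and 3.04 to 8.41 in vehicle. The part of these cell types in the values of Mas1, Agt and Ace was not tested.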

How the data were processed

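The deposited table holds FPKM computed by the authors for 36653 gene identifiers in 15 heart libraries, all columns matching sample titles. HISAT2 2.0.4 and the build mm8 are named in the submitters' processing notes. For the read counter, the annotation, the strand setting and the program behind FPKM, a name is not given in the sources used here. Symbols, exon lengths and overlaps came from GENCODE M21 on another build (36464 identifiers matched), so no coordinates are given but those of RefSeq promoters.

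Whole reads were recovered from FPKM, exon length and a denominator fitted per library. Of 28996 genes above 0, 86.2% gave whole reads within 0.02 in every library, among them all members but Agtr1a and Lnpep. The smallest chi-square per degree of freedom between replicates was 27.6, so no library was counted as a repeat. Recovered reads describe depth only.

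limma 3.58.1 in R 4.3.3 was fitted with an intensity trend to log2(FPKM + 1) of the 13121 genes whose mean reached 0.5 FPKM, with 15 libraries in 1 fit and group as the only term. p-values are 2-sided and Benjamini-Hochberg adjusted per comparison over all genes. The fit was checked on simulated data.

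The members and lists were chosen with earlier results of these data known. The genes named are all members and Ren1, the called genes of each list or else its 2 most abundant, and the 2 genes most like each member. An item planned beside these is not reported here. Alternatives covered the pseudocount, the filter, 3 scalings, the libraries in the fit, a replicate block and leaving out each library.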

Additional observations from a re-analysis of the deposited data

Results flagged for a closer look

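The members and Ctsd, Ece1, Rgs5, Gna12, Sgk1, Hsd11b1 and Grk5, in 3 groups each, gave 48 groups of 5 libraries. In 4 of them the gap from the highest or lowest library to the next exceeded 0.71 of the whole range. Chance gives about 1 in 20 for normally distributed values, which FPKM need not be. Agtr2 in AngII hearts was at 0 in every library and could not be flagged. Ece1 was at 99.7 FPKM in AngII replicate 2 and next at 28.0. Hsd11b1 was at 20.97 FPKM in the same library and next at 7.91. Both genes thus stood apart in the library that also had the highest adipocyte, mesothelial and atrial sums. Hsd11b1 was also at 9.51 FPKM in vehicle replicate 4 and next at 6.62, and Sgk1 at 58.1 FPKM in vehicle replicate 1 and next at 33.2.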

How the results depend on the processing

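Of 744 values of the members under the alternatives, 705 kept their direction and their side of the threshold. Many could not change direction. The filters, the replicate block and leaving out a library of a group not compared do not alter the change itself. Only Mas1 in AngII against vehicle had a call to lose, and it lost it in 12 alternatives and kept it in 11. The 1 value that gained a call was Agt without AngII replicate 3. The number of members called in AngII against vehicle, 1, was 0 with a mean FPKM of at least 5 (where Mas1 was not tested), with no filter, with only the libraries compared, with the replicate block and without AngII replicates 2 and 4. The Mas1 adjusted p was 0.0812 with no filter, 0.107 with only the libraries compared, 0.0598 with the replicate block and 0.147 without AngII replicates 2 and 4. It was 0.0255 to 0.0452 under the 3 scalings. Leaving out 1 library gave 0 to 2 members called.

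Genes called in AngII against vehicle, 197 (166 higher and 31 lower), were 114 (77 and 37) without mitochondrially encoded genes in the scale, 109 (69 and 40) after quantile normalization and 160 (103 and 57) with libraries shifted to 1 median. They were 72 with no filter, 70 with only the libraries compared, 38 with the replicate block, 37 without AngII replicates 2 and 4, and 49 (without AngII replicate 5) to 425 (without AngII replicate 3) with 1 library left out. For both pump groups against vehicle the 3 genes called became 8, 1 and 16 under the same scalings, 34 with a mean FPKM of at least 5, 0 with no filter, 49 with 0.1 added, 0 with the replicate block, 19 without AngII replicates 2 and 4, and 0 to 106 with 1 library left out. AngII plus OA against AngII gave 0 to 1 genes and AngII plus OA against vehicle 0 to 0. The cause of these shifts was not tested.

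Signs turned for small differences. Lnpep in AngII plus OA against AngII was 0.055 with libraries shifted to 1 median, 0.052 after quantile normalization and 0.02 with 0.1 added. Agtrap in both pump groups against vehicle was -0.053 without mitochondrially encoded genes in the scale, -0.023 with libraries shifted to 1 median and -0.044 after quantile normalization. In AngII against vehicle Gna12 was -0.030, -0.028 and -0.11 under these 3 scalings, and without AngII replicates 2 and 4 Ece1 was -0.004 and Hsd11b1 -0.32. With 1 library left out, Lnpep ranged from -0.052 to 0.31 (AngII against vehicle), -0.23 to 0.14 (AngII plus OA against AngII), -0.030 to 0.19 (against vehicle) and -0.027 to 0.20 (both pump groups). Enpep in AngII plus OA against vehicle ranged from -0.068 to 0.10, Agtrap in both pump groups from -0.021 to 0.076, Gna12 from -0.000 to 0.11 and Hsd11b1 from -0.19 to 0.33.

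Replicate numbers showed no clear pairing of the libraries. Same-numbered libraries correlated at -0.350 to 0.435 (mean 0.0436, 15 pairs) and different-numbered ones at -0.432 to 0.457 (mean -0.0115, 60 pairs). Of the 15 libraries, 4 correlated best with their own number. Depth limits Agtr2 and Ren1, with 8 and 12 reads in all, and Mas1, with 10 to 110 reads per library.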
